A study of Homo sapiens with 8 samples.

Results

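The DNA replication and S-phase genes described here were 48 genes taken from a fixed list of symbols, of 69215 genes in the deposited tables and of 15931 that passed the expression filter. All 48 passed it. They fell into 7 steps: 10 genes of origin recognition and licensing, 6 of helicase activation, 9 of the polymerases and primase, 11 of the sliding clamp, its loader and the lagging strand, 4 of nucleotide supply, 4 of G1/S control, and 4 of chromatin assembly and the fork checkpoint. The rule that chose them uses symbols and no measured value, although earlier results of these data were known when the list was written.

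Cells copy their DNA once per division by loading the MCM helicase onto origins in G1 and firing those origins in S phase. Most of the genes for this work are transcribed late in G1 by E2F factors, which the retinoblastoma protein RB1 holds back until cyclin D and cyclin E kinases release them. Rhabdoid tumors have lost SMARCB1, which belongs to the core of the mammalian SWI/SNF chromatin remodelers (mSWI/SNF), and returning SMARCB1 to such cells is known to slow their cycle in G1 over days.

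RNA was sequenced from G401, a SMARCB1-deficient cell line established from a kidney rhabdoid tumor. A Tet-On system let doxycycline (Dox) induce SMARCB1 in one derived line and GFP in the control line. Each of the 2 lines received Dox at 0.1 µg/ml or the solvent DMSO for 12 h. This gave 4 groups of 2 libraries, SMARCB1 DMSO, SMARCB1 Dox, GFP DMSO and GFP Dox, and all 4 groups therefore carried a Tet-On construct in the same G401 background. Whether each line was a single clone, and whether the replicates were separate cultures, was not given in the sources used here, so p-values measure only the spread between these libraries.

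The libraries held 29632090 to 37597477 counts in genes. The transgene matched the labels: SMARCB1 had 10 and 21 counts in the SMARCB1 DMSO libraries, 30474 and 29383 in the SMARCB1 Dox libraries and 0 in all 4 GFP libraries. GFP is not a gene of the annotation, so the GFP labels were not checked. Vimentin, a marker of rhabdoid cells, was at 678 to 1310 CPM (the CPM unit, here with library sizes adjusted by edgeR's TMM factors), whereas PTPRC, PECAM1, EPCAM, MYOD1 and RBFOX3, markers of other cell types, had at most 7 counts in a library. Mitochondrial genes took 18.9% to 27.9% of counts, most of all in SMARCB1 DMSO replicate 1.

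That library also stood apart in the replication genes. The summed level of the 48 genes was 2612 CPM there and 2868 to 3031 CPM in the other 7 libraries. It held the lowest of the 8 values for 20 of the 48 genes, or 41.7%, against 14.7% of all tested genes. It was below its own replicate in 39 of the 48 genes, against 50.1% of all tested genes. For comparisons that use the SMARCB1 DMSO group, it is therefore stated which named genes lost their call without this library. The other named calls were kept without it. In bulk RNA, fewer cells in S phase and less RNA per cell cannot be told apart.

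**Figure D1:**
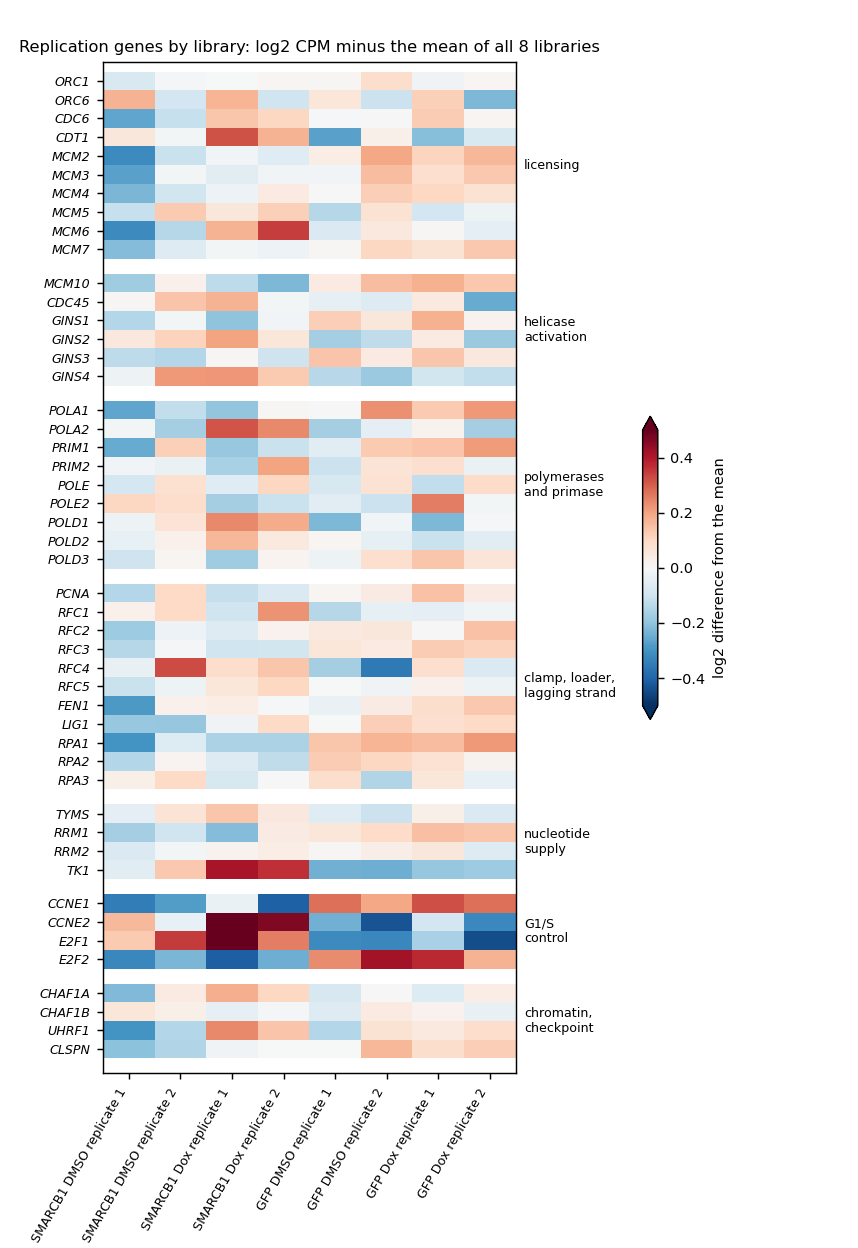
Color map of the 48 replication genes (rows, by step) in the 8 libraries (columns), showing log2 CPM minus the gene's mean over all libraries, with red for higher and blue for lower and colors saturating at 0.5. The first column, SMARCB1 DMSO replicate 1, is blue in most rows, and CCNE1, CCNE2, E2F1 and E2F2 separate the lines in both treatments.

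The replication genes were well covered by reads. Mean levels over the 8 libraries ran from 4.40 CPM for POLA2 to 388 CPM for MCM4, with a median of 35.8 CPM against 12.7 CPM over all tested genes, and the lowest count of any of the 48 genes in any library was 126. Levels between genes were compared per kb of exon. PCNA, the sliding clamp that tethers polymerases to DNA, was highest at 101 CPM per kb (91.1 to 112 over the libraries), followed by TYMS, the thymidylate synthase, at 78.9 (73.2 to 86.8). These ranges did not overlap. MCM3 at 42.8 (35.4 to 47.4), MCM4 at 39.4 (33.6 to 42.8) and RRM1, the large subunit of ribonucleotide reductase, at 34.4 (29.5 to 38.1) CPM per kb overlapped one another. RFC3, a clamp loader subunit, was next at 26.5 (23.9 to 28.8).

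The 5 lowest levels per kb were those of POLA2, the accessory subunit of polymerase alpha, at 0.37 CPM per kb (0.32 to 0.45), LIG1, the ligase that seals Okazaki fragments, at 1.29 (1.13 to 1.40), POLA1, the catalytic subunit of polymerase alpha, at 2.36 (1.96 to 2.75), RFC4, a clamp loader subunit, at 2.58 (2.0 to 3.21) and CCNE2, a cyclin E, at 2.91 (2.10 to 4.02). The ranges of POLA1, RFC4 and CCNE2 overlapped. The other cyclin E, CCNE1, was at 6.44 (4.76 to 7.90), E2F1 at 6.49 (4.65 to 9.0) and E2F2 at 4.72 (3.46 to 6.18) CPM per kb. The 6 subunits of the MCM2 to MCM7 ring, which act together in the replicative helicase, ranged from 12.6 CPM per kb for MCM5 to 42.8 for MCM3. Exon length was that of all annotated exons joined. With the length of the canonical transcript, TYMS moved to first place at 118 CPM per kb (110 to 130) and PCNA was at 111 (100 to 123). These ranges overlapped. POLD2, of polymerase delta, moved from place 17 at 11.5 CPM per kb to place 4 at 57.4. The 5 lowest were then POLA2, LIG1, CCNE2, E2F2 and CDC45. The MCM ring ran from 20.6 for MCM6 to 95.6 for MCM4. With this length 15 genes in place of 7 exceeded 20 CPM per kb, so the order depends on the length used.

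**Figure D2:**
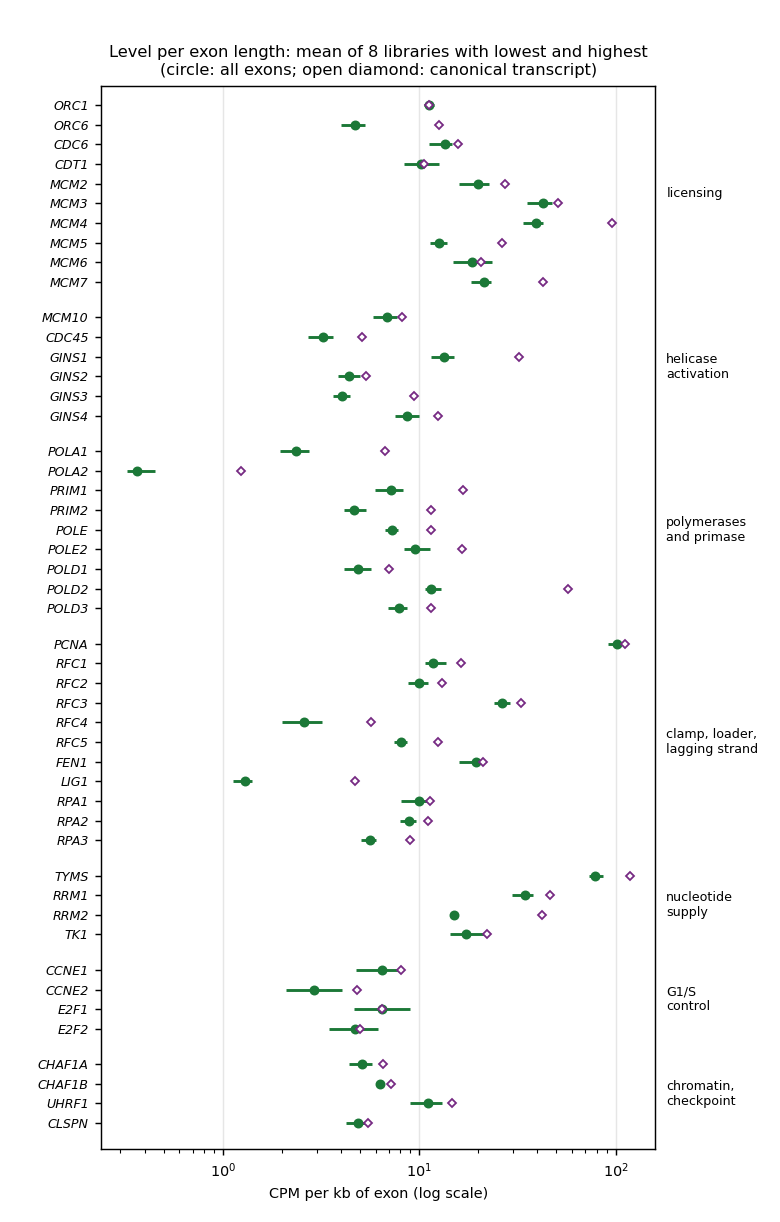
Level of each replication gene in CPM per kb of exon on a log axis, by step. Circles give the mean of 8 libraries over all exons with a bar from the lowest to the highest library, and open diamonds use the canonical transcript. PCNA and TYMS lie at the top and POLA2 at the bottom on both lengths.

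The first comparison asked what Dox did in the line that carries SMARCB1. With edgeR's quasi-likelihood test and Benjamini-Hochberg adjustment over all genes, 5 of the 48 rose and 0 fell: MCM6, UHRF1, CDC6, TK1 and CCNE2, by 1.24-fold to 1.41-fold. That is 10.4% of the genes, against 14.0% of all tested genes called in this comparison, 8.33% higher and 5.69% lower, so the share called was near the background. The median log2 fold change was 0.08 over the 48 genes and -0.004 over all tested genes. An unadjusted p under 0.05 by edgeR was found for 8 of the 48 genes, the 5 called and CDT1, POLA2 and POLE2. It was found for 4148 of all 15931 tested genes, which is a larger share.

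In licensing, MCM6, a subunit of the helicase ring, was at 61.3 and 69.3 CPM with DMSO and 86.4 and 97.3 CPM with Dox. The groups did not overlap, and the GFP line lay between them at 72.8 and 79.4 CPM with DMSO and 76.9 and 74.0 with Dox. MCM6 rose 1.41-fold with Dox in the SMARCB1 line (log2 fold change 0.49, SE 0.09, adjusted p = 0.000523 by edgeR). CDC6, which loads the ring together with CDT1, was at 59.2 and 65.7 CPM with DMSO and 78.4 and 76.7 CPM with Dox. CDC6 rose 1.24-fold (log2 fold change 0.31, SE 0.08, adjusted p = 0.0134 by edgeR), and its Dox libraries lay close to the highest GFP library at 77.8 CPM.

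The rest of the licensing genes gave smaller values, all uncalled. CDT1 had a log2 fold change of 0.23 (SE 0.11, adjusted p = 0.173 by edgeR), at 28.9 and 27.5 CPM with DMSO and 34.7 and 31.4 with Dox, and was called only when library totals replaced the TMM factors (0.32). MCM2, MCM3, MCM4, MCM5 and MCM7, the partners of MCM6 in the ring, had log2 fold changes from 0.07 to 0.17. ORC6, an origin recognition subunit, was lowest of the step at -0.01 (SE 0.13). In 7 of the 10 licensing genes both Dox libraries lay above both DMSO libraries, against 25.9% of all tested genes, with the low SMARCB1 DMSO replicate 1 in the DMSO group, and the median log2 fold change of the step was 0.14.

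The letters before the start sites of MCM6 and CDC6 are shown because these genes rose within the same step and both carry E2F motifs. CDT1, MCM2, MCM3 and MCM7 of this step also held E2F matches and were not called with Dox. The sequences are the 250 bases before the RefSeq start on GRCh38.p14, read 5′ to 3′ on the gene's strand, and capitals mark E2F motif matches. The MCM6 stretch lies at chr2:135876444-135876693 on the minus strand and the CDC6 stretch at chr17:40287629-40287878 on the plus strand, and neither held a base of an exon annotated in GENCODE.
MCM6: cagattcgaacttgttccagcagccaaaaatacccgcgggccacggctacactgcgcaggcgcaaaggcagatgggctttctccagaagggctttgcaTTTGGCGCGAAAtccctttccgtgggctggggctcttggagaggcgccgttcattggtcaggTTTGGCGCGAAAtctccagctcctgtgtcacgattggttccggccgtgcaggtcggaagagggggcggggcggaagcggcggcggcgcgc
CDC6: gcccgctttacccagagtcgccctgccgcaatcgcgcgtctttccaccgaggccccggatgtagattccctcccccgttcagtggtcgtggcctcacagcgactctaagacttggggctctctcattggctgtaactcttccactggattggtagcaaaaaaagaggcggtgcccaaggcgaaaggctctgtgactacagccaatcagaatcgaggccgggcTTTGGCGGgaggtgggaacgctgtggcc

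Motifs were searched on both strands of 300 bases per gene, 250 before and 50 after the start. The E2F motif was taken as TTTGGCGC, TTTCCCGC, TTTGGCGG or TTTCGCGC, the CHR element of late cell cycle genes as TTTGAA or TTCGAA, and the CCAAT box as CCAAT. The RefSeq table held 41 of the 48 genes, all but CCNE2, GINS4, MCM4, MCM5, POLD3, RPA2 and RPA3. E2F letters stood in 25 of the 41, or 61.0%, against 3.43% of the 27305 promoters of the table and 5.72% of the 10892 promoters of tested genes. CCAAT stood in 24, or 58.5%, against 35.7% of all promoters and 37.1% of those of tested genes. CHR letters stood in 2, or 4.88%, against 16.6% of all promoters and 11.2% of those of tested genes.

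MCM6 held 4 E2F matches, which overlap in pairs: TTTGGCGC at -152 to -145 and at -90 to -83, counted in bases from the start, with TTTCGCGC on the other strand beginning within each. CDC6 held TTTGGCGG at -28 to -21 and TTTGGCGC at 8 to 15, after the start and so not in the printed stretch. UHRF1 held TTTCCCGC on the other strand at -14 to -7. TK1 held no E2F, CHR or CCAAT letters in this window. Of the 250 bases before the start, 105 lay in annotated exons for TK1 and 71 for UHRF1. By step, E2F letters stood in 6 of 8 licensing genes, 5 of 5 helicase activation genes, 4 of 8 polymerase genes, 4 of 9 clamp genes, 1 of 4 nucleotide genes, 2 of 3 G1/S genes and 3 of 4 chromatin genes with a promoter. The median log2 fold change with Dox in the SMARCB1 line was 0.10 over the 25 genes with E2F letters and 0.06 over the 16 without, and the ranges overlapped.

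In helicase activation, where CDC45 and the 4 GINS subunits complete the moving helicase and MCM10 helps to start it, 0 of 6 genes were called. Log2 fold changes ran from -0.10 for MCM10 (SE 0.09) to 0.09 for GINS3 (SE 0.10). MCM10 was at 32.7 and 37.6 CPM with DMSO and 33.9 and 31.7 with Dox, so the groups overlapped. The median of the step was 0.03.

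Among the polymerases and primase, 0 of 9 genes were called, and the step held both the largest positive and the largest negative uncalled values of the 48 genes. POLA2 had a log2 fold change of 0.37 (SE 0.17, adjusted p = 0.181 by edgeR), at 4.32 and 3.88 CPM with DMSO and 5.42 and 5.15 with Dox. POLE2, the accessory subunit of polymerase epsilon, which copies the leading strand, had -0.24 (SE 0.10, adjusted p = 0.122 by edgeR). Its level was 30.0 and 29.7 CPM with DMSO and 24.7 and 25.8 with Dox. In both genes the libraries of the 2 groups did not overlap. POLE, of polymerase epsilon, was at 84.2 and 94.6 CPM with DMSO and 85.8 and 96.7 with Dox (log2 fold change 0.03, SE 0.09), POLD1, of polymerase delta, had 0.19 (SE 0.11) and POLA1 had 0.10 (SE 0.10). PRIM1 and PRIM2, the primase that lays the RNA primers, had -0.10 (SE 0.12) and 0.06 (SE 0.11).

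Among the 11 clamp, loader and lagging strand genes, 0 were called and the median was 0.01. PCNA had a log2 fold change of -0.08 (SE 0.09), at 128 and 152 CPM with DMSO and 130 and 135 with Dox, well within the spread of the DMSO pair. LIG1 was highest of the step at 0.23 (SE 0.12) and RPA3, the smallest subunit of the single-strand binding protein RPA, lowest at -0.11 (SE 0.11). The 5 clamp loader subunits RFC1 to RFC5 ran from -0.04 for RFC4 to 0.15 for RFC5. FEN1, the flap nuclease that trims Okazaki fragments, was at 34.9 and 43.2 CPM with DMSO and 43.6 and 42.4 with Dox (log2 fold change 0.14, SE 0.10), so that its only low value was SMARCB1 DMSO replicate 1.

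In nucleotide supply, TK1, the cytosolic thymidine kinase of the salvage route, was at 30.1 and 34.3 CPM with DMSO and 41.6 and 40.3 CPM with Dox. The groups did not overlap, and all 4 GFP libraries lay lower, at 26.4 to 27.6 CPM. TK1 rose 1.27-fold (log2 fold change 0.35, SE 0.09, adjusted p = 0.0135 by edgeR). The enzymes of de novo synthesis gave smaller values: RRM2, the small subunit of ribonucleotide reductase, had a log2 fold change of 0.07 (SE 0.08), at 131 and 137 CPM with DMSO and 140 and 141 with Dox, and RRM1 had 0.05 (SE 0.09). TYMS, which makes thymidylate, was at 184 and 200.2 CPM with DMSO and 210.03 and 198 with Dox (log2 fold change 0.08, SE 0.08), and the groups overlapped.

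In G1/S control, CCNE2 was at 14.0 and 12.1 CPM with DMSO and 17.7 and 17.3 CPM with Dox. The groups did not overlap, and CCNE2 rose 1.34-fold (log2 fold change 0.42, SE 0.13, adjusted p = 0.0281 by edgeR). Exons of CCNE2 overlap those of INTS8 on the opposite strand, and the strand setting of the counting was not given in the sources used here, so its count may hold or lack reads of that stretch. The related cyclin CCNE1 had a log2 fold change of 0.10 (SE 0.13), at 12.2 and 12.8 CPM with DMSO and 15.2 and 11.7 with Dox, and the groups overlapped. E2F1 was at 18.6 and 21.7 CPM with DMSO and 24.2 and 20.3 with Dox (log2 fold change 0.14, SE 0.12), and E2F2 had -0.05 (SE 0.11).

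In chromatin assembly and the fork checkpoint, UHRF1, which brings the maintenance DNA methyltransferase to newly copied DNA, was at 46.2 and 51.3 CPM with DMSO and 67.2 and 62.8 CPM with Dox. The groups did not overlap, and the 4 GFP libraries reached from 51.3 to 60.5 CPM. UHRF1 rose 1.33-fold (log2 fold change 0.41, SE 0.09, adjusted p = 0.00308 by edgeR). CHAF1B, a subunit of the histone chaperone CAF-1, was lowest of the step at -0.07 (SE 0.09), and its partner CHAF1A had 0.22 (SE 0.11). CLSPN, the claspin that relays fork stress, had 0.16 (SE 0.09).

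**Figure D3:**
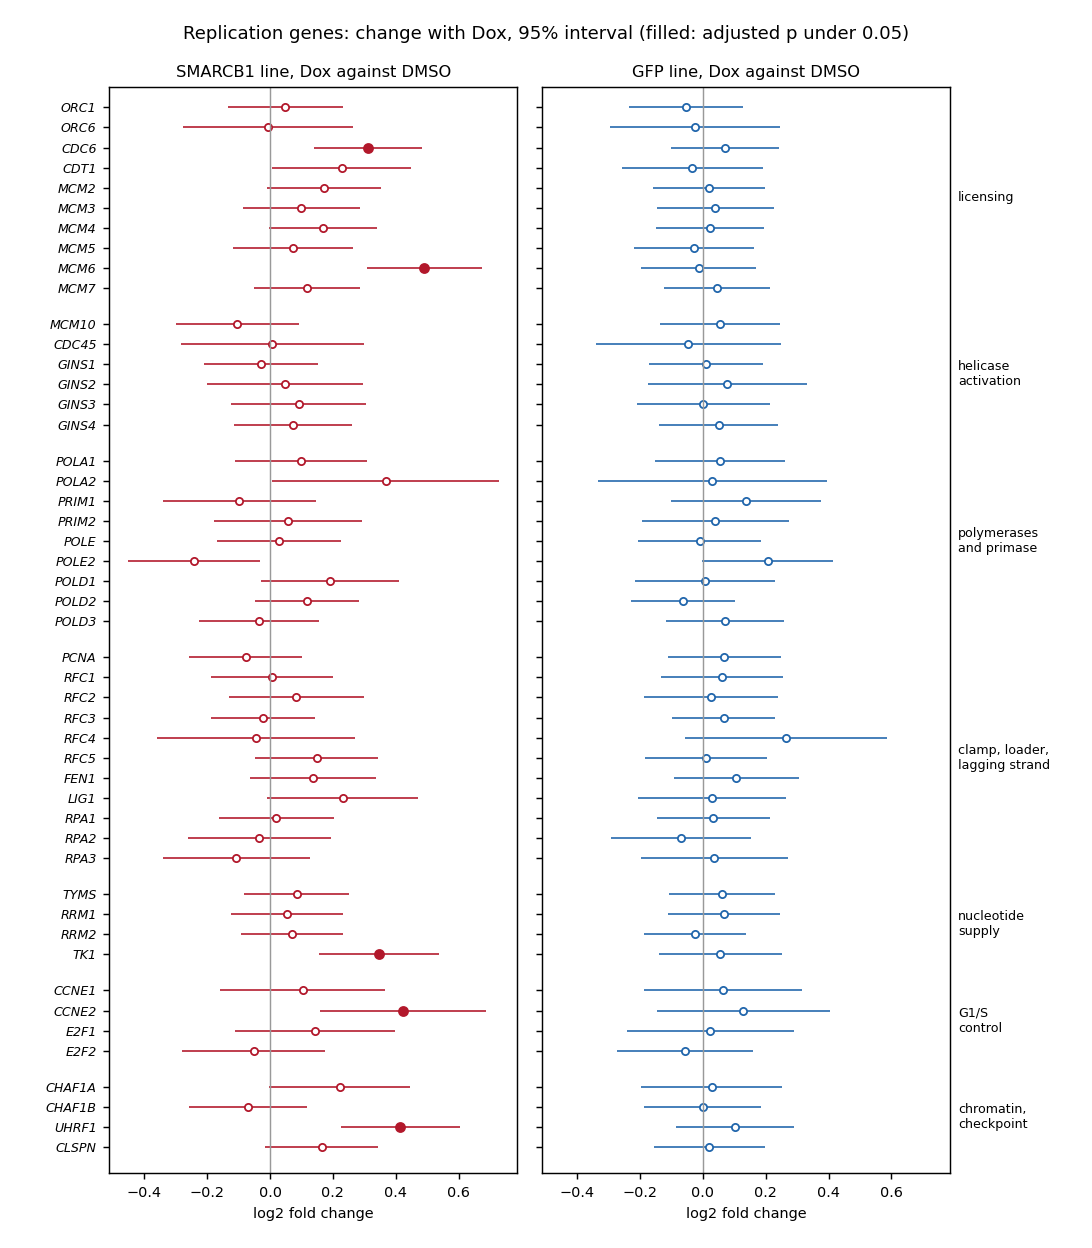
Log2 fold change with Dox of each replication gene in the SMARCB1 line (left) and the GFP line (right), with 95% intervals from the edgeR fit and filled circles for an adjusted p under 0.05. The 5 filled genes, MCM6, UHRF1, CDC6, TK1 and CCNE2, all lie to the right of 0 in the SMARCB1 line.

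Both Dox libraries lay above both DMSO libraries of the SMARCB1 line in 19 of the 48 genes and below them in 3, which were POLE2, RPA3 and CHAF1B. Over all tested genes these shares were 25.9% and 25.2%. The 95% interval of the change lay within 1.5-fold either way for 44 of the 48 genes, all but MCM6, UHRF1, CCNE2 and POLA2, and within 2-fold for all 48. The summed level of the 48 genes was 2743 ± 184 CPM (SD, n = 2) in SMARCB1 DMSO and 2940 ± 55.8 CPM (SD, n = 2) in SMARCB1 Dox. By step, sums were 967 ± 74.4 and 1091 ± 19.0 CPM for licensing, 483 ± 42 and 484 ± 18.2 for the clamp step, and 144 ± 6.93 and 167 ± 3.03 for chromatin assembly and the checkpoint (SD, n = 2).

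Without SMARCB1 DMSO replicate 1, CDC6 and TK1 lost their call, and the median log2 fold change of the 48 genes was 0.02. CDC6, TK1 and CCNE2 lost theirs without SMARCB1 Dox replicate 1. Both fits left 1 library in a compared group, and fewer of all tested genes were called in them as well. MCM6 and UHRF1 kept their call under each of the 16 alternative settings tried. TK1 also lost its call when a trend with GC content was removed (log2 fold change 0.21), and CCNE2 when SMARCB1 Dox replicate 2 or SMARCB1 DMSO replicate 2 was left out. Across the 48 genes, Spearman's rho between exon GC content and the log2 fold change was 0.39 in the SMARCB1 line and 0.25 over 15924 tested genes. In the GFP line rho was -0.37 across the 48 genes and -0.006 over the tested genes. The part of GC content or of the low library in these rises was not tested beyond these values.

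The GFP line showed what Dox did without SMARCB1. None of the 48 genes was called by edgeR, with 0.0% of all tested genes called, and 0 of the 48 had an unadjusted p under 0.05, against 266 of all tested genes. DESeq2 also called 0 of the 48. The median log2 fold change of the 48 genes was 0.03 and values ran from -0.07 for RPA2, a subunit of RPA, to 0.27 for RFC4, a clamp loader subunit (SE 0.15). Intervals lay within 1.5-fold for 47 of the 48 genes, all but RFC4. Among the genes that rose in the SMARCB1 line, the log2 fold change with Dox in the GFP line was -0.01 for MCM6 (SE 0.09), 0.10 for UHRF1 (SE 0.09), 0.07 for CDC6 (SE 0.08), 0.06 for TK1 (SE 0.09) and 0.13 for CCNE2 (SE 0.13). PCNA had 0.07, RRM2 -0.02, CDT1 -0.03, E2F1 0.02 and CCNE1 0.06 (SE 0.08 to 0.13), and POLE2 had 0.21 (SE 0.10).

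The difference between both Dox effects was tested in the same fit. MCM6 was the 1 gene of 48 called, or 2.08%, against 4.71% of all tested genes (3.07% higher, 1.64% lower). The Dox effect on MCM6 was larger in the SMARCB1 line by 0.50 on the log2 scale (SE 0.12, adjusted p = 0.0192 by edgeR). This call was lost when any of 5 single libraries was left out, SMARCB1 DMSO replicate 1, SMARCB1 Dox replicate 2, GFP DMSO replicate 2 or either GFP Dox library, with differences between 0.41 and 0.54. For UHRF1 the difference was 0.31 (SE 0.13, adjusted p = 0.208), for TK1 0.29 (SE 0.13, adjusted p = 0.271), for CCNE2 0.29 (SE 0.18, adjusted p = 0.478) and for CDC6 0.24 (SE 0.12, adjusted p = 0.313, all by edgeR), so these rises were not shown to differ between the lines. POLE2 had a difference of -0.45 (SE 0.14, adjusted p = 0.0805 by edgeR). Of the 48 intervals, 43 lay within 1.5-fold and all 48 within 2-fold.

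**Figure D4:**
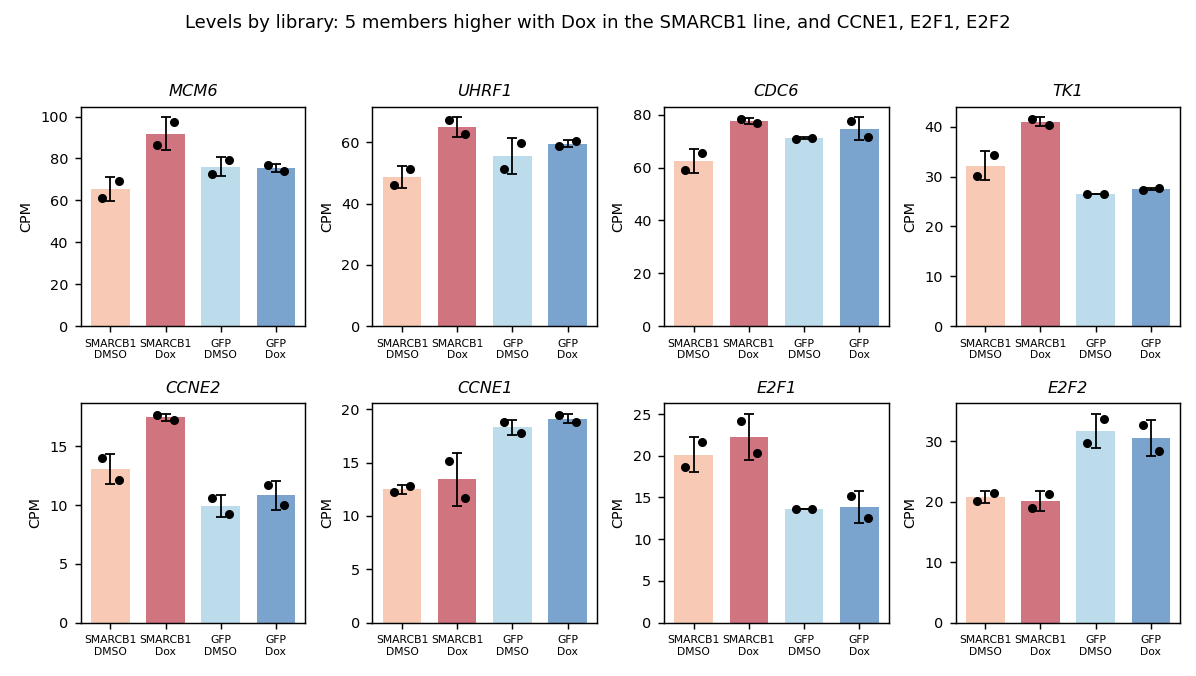
Level in CPM of the 5 replication genes called with Dox in the SMARCB1 line and of CCNE1, E2F1 and E2F2, with 1 point per library, bars at the mean and error bars of 1 SD (n = 2). For the first 5 genes both SMARCB1 Dox points lie above both SMARCB1 DMSO points, and CCNE1, E2F1 and E2F2 differ between the lines with and without Dox.

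The last comparison set the lines side by side without Dox, where neither expressed SMARCB1 above 21 counts. Of the 48 genes, 12 were called, 5 higher and 7 lower in SMARCB1 DMSO than in GFP DMSO, which is 25.0% against 32.0% of all tested genes (16.3% higher, 15.7% lower). This share was near the background. All 4 genes of G1/S control were called, in opposite directions. The median log2 fold change of the 48 genes was -0.07, and libraries did not overlap for 10 genes that were higher and 22 that were lower in SMARCB1 DMSO, against 33.1% and 31.6% of all tested genes.

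E2F1 and E2F2 are both activators of the replication program, and they moved apart. E2F1 was at 18.6 and 21.7 CPM in SMARCB1 DMSO and at 13.6 CPM in both GFP DMSO libraries, 1.48-fold higher in the SMARCB1 line (log2 fold change 0.57, SE 0.13, adjusted p = 0.00123 by edgeR). E2F2 was at 20.1 and 21.5 CPM in SMARCB1 DMSO and 29.7 and 33.7 CPM in GFP DMSO, 1.52-fold lower in the SMARCB1 line (log2 fold change -0.61, SE 0.11, adjusted p = 0.000114 by edgeR). The libraries did not overlap in either gene. Both promoters are shown because these genes moved in opposite directions and each holds the same E2F letters, TTTGGCGC, at -20 to -13 in E2F1 and at -42 to -35 in E2F2. The stretches are chr20:33686386-33686635 and chr1:23531234-23531483, both on the minus strand of GRCh38.p14, with capitals for the E2F match and no base in an annotated exon.
E2F1: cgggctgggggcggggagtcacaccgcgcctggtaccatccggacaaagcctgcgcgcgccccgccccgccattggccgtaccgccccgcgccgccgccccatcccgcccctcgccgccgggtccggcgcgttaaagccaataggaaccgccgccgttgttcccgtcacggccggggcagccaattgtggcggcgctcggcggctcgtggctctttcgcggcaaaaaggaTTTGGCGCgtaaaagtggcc
E2F2: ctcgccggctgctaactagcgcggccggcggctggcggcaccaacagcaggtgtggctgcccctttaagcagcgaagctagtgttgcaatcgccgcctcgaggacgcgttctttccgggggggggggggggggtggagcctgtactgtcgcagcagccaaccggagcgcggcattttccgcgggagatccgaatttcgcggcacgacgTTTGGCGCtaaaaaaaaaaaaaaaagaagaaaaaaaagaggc

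The cyclins E showed the same split. CCNE1 was at 12.2 and 12.8 CPM in SMARCB1 DMSO and 18.8 and 17.8 CPM in GFP DMSO, 1.46-fold lower in the SMARCB1 line (log2 fold change -0.55, SE 0.12, adjusted p = 0.00159 by edgeR). CCNE2 was at 14.0 and 12.1 CPM against 10.6 and 9.25 CPM, 1.32-fold higher (log2 fold change 0.40, SE 0.13, adjusted p = 0.0238 by edgeR). E2F1, E2F2 and CCNE1 kept their call and direction under all 16 alternatives, and CCNE2 lost its call in 4. With Dox, which was not tested between the lines, E2F2 was at 18.9 and 21.3 CPM in the SMARCB1 line and at 32.7 and 28.4 in the GFP line, and E2F1 at 24.2 and 20.3 against 15.2 and 12.5 CPM.

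In the other steps 8 genes were called. MCM2 was 1.26-fold lower in the SMARCB1 line (log2 fold change -0.33, SE 0.09, adjusted p = 0.00532 by edgeR), at 75.0 and 86.7 CPM against 96.0 and 107 CPM. MCM4 had -0.22 (SE 0.08, adjusted p = 0.0403 by edgeR), a call lost in 5 of 16 alternatives. RPA1, the large subunit of RPA, was at 44.3 and 51.9 CPM against 59.8 and 61.1 CPM (log2 fold change -0.33, SE 0.09, adjusted p = 0.0056 by edgeR). POLA1 had -0.31 (SE 0.10) and CLSPN -0.26 (SE 0.09), both called lower.

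RFC4 was at 7.48 and 9.61 CPM in SMARCB1 DMSO and 6.81 and 5.99 CPM in GFP DMSO, 1.34-fold higher in the SMARCB1 line (log2 fold change 0.42, SE 0.15, adjusted p = 0.0407 by edgeR). Its exons overlap those of EIF4A2 on the opposite strand, and its call was lost in 8 of 16 alternatives. TK1 had 0.29 (SE 0.09) and GINS4 0.27 (SE 0.09), both called higher, with the call lost in 5 alternatives for TK1 and 6 for GINS4. Genes followed in every comparison were not called here: CDC6 at -0.19 (SE 0.08), CDT1 at 0.13 (SE 0.11), PCNA at -0.04 (SE 0.09) and RRM2 at -0.06 (SE 0.08). The extremes of the remaining steps were GINS3 at -0.23 (SE 0.10), POLE2 at 0.18 (SE 0.10), RRM1 at -0.21 (SE 0.09) and CHAF1B at 0.05 (SE 0.09).

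**Figure D5:**
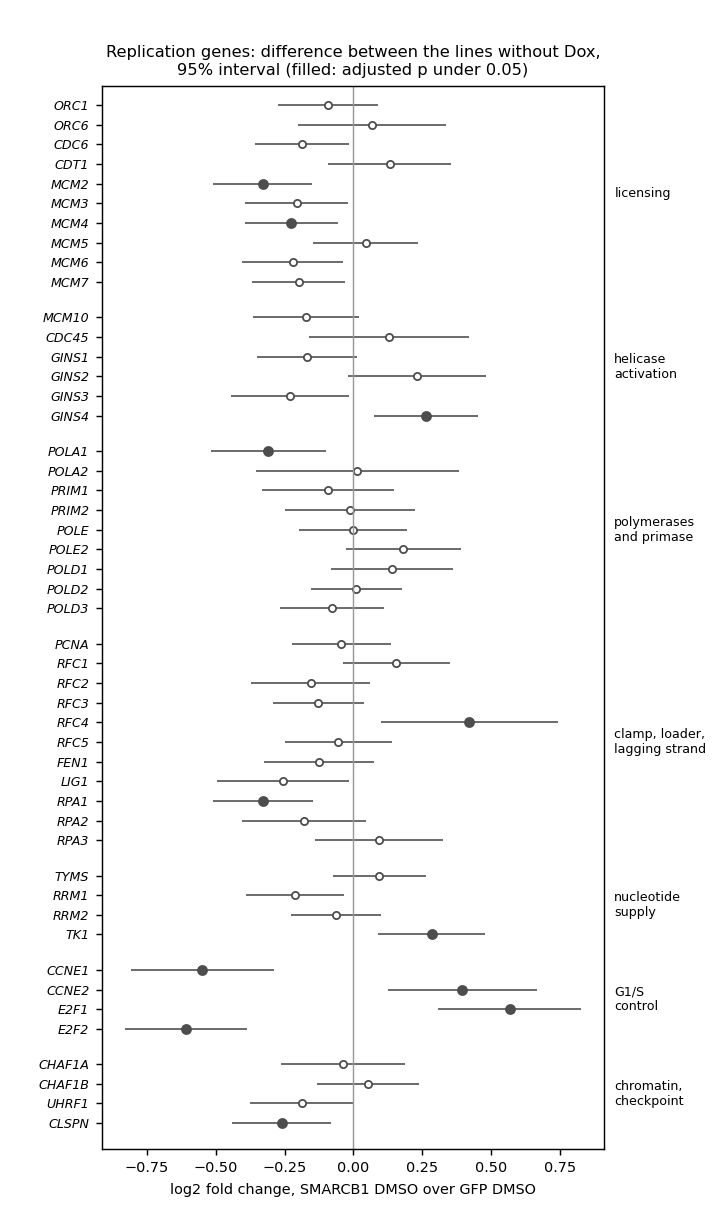
Log2 fold change of each replication gene in SMARCB1 DMSO over GFP DMSO, with 95% intervals from the edgeR fit and filled circles for an adjusted p under 0.05. The 4 genes of G1/S control are filled, with E2F1 and CCNE2 above 0 and E2F2 and CCNE1 below.

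Without SMARCB1 DMSO replicate 1, CCNE2, MCM2, MCM4, POLA1, CLSPN and RPA1 lost their call between the lines. The median log2 fold change of the 48 genes was then -0.03. Without GFP DMSO replicate 2, only CCNE1, E2F1, E2F2 and RPA1 kept their call, and the median was -0.05. Each of these fits left 1 library in a compared group, and fewer of all tested genes were called as well. The scaling also mattered, since with library totals in place of TMM factors 1 gene was higher (E2F1) and 18 lower, beside 5 and 7 with TMM. On that scale 1732 of all tested genes were called higher and 3658 lower, beside 2600 and 2505 with TMM. The median of all tested genes moved from 0.01 to -0.10.

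A further 68 genes of the replication and S-phase pathway outside the list were read with Dox in the SMARCB1 line, with 3 called higher and 5 lower, 11.8% against 14.0% of all tested genes, and a median log2 fold change of -0.03. CHEK2, a checkpoint kinase, fell 1.76-fold from 10.5 and 11.9 CPM to 6.21 and 6.52 CPM (log2 fold change -0.81, SE 0.14, adjusted p = 0.000314 by edgeR). CHEK2 has 7 named pseudogenes and overlaps HSCB on the opposite strand, so its count is uncertain. ORC2, an origin recognition subunit, fell 1.33-fold from 56.2 and 52.6 CPM to 40.01 and 41.86 CPM (adjusted p = 0.00154 by edgeR). MCM9, a helicase of the MCM family that serves repair, had -0.44 (SE 0.13, called lower), but the call was lost in 5 of 16 alternatives, among them library totals (-0.35), removal of the GC trend (-0.37) and leaving out SMARCB1 Dox replicate 1 (-0.25) or SMARCB1 DMSO replicate 2 (-0.31). CHEK2 and ORC2 kept their call in all 16.

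CHTF18, of an alternative clamp loader, had 0.48 (SE 0.14), CDC25A, a phosphatase that activates cyclin kinases, 0.30 (SE 0.09) and RB1 0.29 (SE 0.08), all called higher. All 3 calls were lost without SMARCB1 DMSO replicate 1, at 0.34 for CHTF18, 0.30 for CDC25A and 0.27 for RB1. CHTF18 also lost its call when the GC trend was removed (0.31) and without SMARCB1 Dox replicate 2 (0.40), as did RB1 without the latter, and CDC25A lost it in 5 of 16 alternatives, down to 0.18 without SMARCB1 Dox replicate 1. In the GFP line 0 of the 68 were called, and CHEK2 was the 1 gene of the 68 whose Dox effect differed between the lines. Between the lines without Dox, 1 was higher, ASF1B, a histone chaperone (log2 fold change 0.54), and 9 lower, 14.7% called against 32.0% of all tested genes. The largest of these were SAMHD1, which degrades dNTPs (-0.57), E2F8, a repressor of E2F targets (-0.44), and MCM8 (-0.42).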

How the data were processed

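RNA was measured in 8 libraries of G401 cells, in 4 groups of 2 named from the sample titles. The authors aligned reads with STAR to hg38 and counted them with HTSeq over GENCODE v42 exons in intersection-strict mode, and deposited the raw counts. The versions of the tools and the strand option were not given in the sources used here. Labels and methods name different library kits (for ribosome profiling and for directional total RNA), so the chemistry was uncertain. The counting leaves genes with overlapping exons (23 of the 48) and with named pseudogenes (10 of the 48) uncertain. The 5 entries that name no gene held 27.0% to 29.3% of a library and were left out.

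Symbols, exon lengths and exon GC content came from GENCODE v44 on GRCh38, and promoter letters from RefSeq on GRCh38.p14. The main test was edgeR 4.0.16 in R 4.3.3 on the counts, with the default filter, TMM factors and the quasi-likelihood model, in which the 8 libraries were fitted together by group. A gene was called where its Benjamini-Hochberg adjusted p, over the 15931 genes tested in each of 4 comparisons, was under 0.05. Standard errors came from fold changes and F statistics. CPM used the TMM factors. The fit was tried on simulated counts with 200 changed genes. DESeq2 1.42.0, the study's tool, other scalings, no expression filter, a replicate block, GC correction and leaving out each library were the alternatives.

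The genes named with values were every called gene, or between the lines the 2 largest changes per step. The highest and lowest gene of each step were added, and E2F1, CCNE1, CCNE2, CDC6, CDT1, PCNA and RRM2. For the GFP line and the difference of the Dox effects, the extremes of the steps were not all given. For that difference, E2F1, CCNE1, CDT1, PCNA and RRM2 were left out. From the other lists, up to 3 called genes per direction were named. CDKN1A and CDKN2A were named with Dox in the SMARCB1 line and between the lines. POLA1, MCM4, CLSPN, MCM2 to MCM7, CHAF1A, TK1 and genes named for their level were added where the text describes them. The genes, lists and tests were chosen with earlier results of these data known.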

Additional observations from a re-analysis of the deposited data

Results flagged for a closer look

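Response to Dox was unequal in the lines, by edgeR's test of the difference itself with Benjamini-Hochberg adjustment, for MCM6 among the replication genes and for 3 genes of the lists beside them. That was 2.08% of the 48 replication genes and 1.47% of the 68 further pathway genes. It was 16.7% of the 12 genes of G1 brakes and cyclin D and 0.0% of the 26 mitosis genes. Over all tested genes the share was 4.71%. For MCM6 the difference was 0.50 on the log2 scale (SE 0.12, adjusted p = 0.0192 by edgeR). For CDK6, a cyclin D kinase, it was 0.85 (SE 0.16, adjusted p = 0.00267 by edgeR). For CCND3, cyclin D3, it was 0.74 (SE 0.15, adjusted p = 0.00479 by edgeR). For CHEK2 it was -0.95 (SE 0.19, adjusted p = 0.00432 by edgeR). CDK6, CCND3 and CHEK2 kept this call under all 15 alternatives and MCM6 under 10. With 2 libraries per group, single libraries were not tested for standing apart within a group.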

How the results depend on the processing

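The Dox response of the SMARCB1 line was refitted under 16 alternatives. Leaving out single libraries gave 2 to 5 called replication genes and a median log2 fold change of 0.022 to 0.148. With library totals the median was 0.17, where that of all tested genes was 0.09. All tested genes then split into 1986 higher and 497 lower, beside 1327 and 907 with TMM. In the GFP line 0 were called under every alternative run. For the difference of the Dox effects, 15 alternatives were run, since a fit on only the groups compared holds all 8 libraries. Leaving out single libraries gave a median of -0.015 to 0.125, and library totals gave a median of 0.12. A replicate block gave 2 called, MCM6 higher and POLE2 lower, with 8.05% of all tested genes called. The block together with GC correction gave 2, MCM6 and CDC6, with 7.64% of all tested genes called. GC correction alone gave 1, MCM6, with 4.35%. Between the lines, library totals gave 19 called and a median of -0.19, a replicate block 17, the block with GC correction 22, DESeq2 9, and leaving out single libraries 4 to 14 with a median of -0.155 to -0.028. The share of all tested genes called between the lines moved as well. It was 32.0% in the main fit, 33.8% with library totals and 37.5% with the block. With the block and GC correction it was 39.4%, and with DESeq2 24.7%. Every fit that left out a library gave a smaller share than the main fit. Same-numbered replicates deviated together only weakly (correlations 0.03 to 0.15) and no label ties them, so the block was not taken as a pairing. No named log2 fold change that was called reversed under any alternative. The causes of these moves were not tested. With 2 libraries per group, the median half-width of the 95% intervals of the 48 changes with Dox was 0.20 on the log2 scale in the SMARCB1 line.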

Other observations

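A list of 12 genes held CDK inhibitors (the G1 brakes), the D cyclins and their kinases CDK4 and CDK6. By edgeR, 3 of them were called higher and 1 lower with Dox in the SMARCB1 line. That is 33.3% against 14.0% of all tested genes, with a median log2 fold change of 0.25 against -0.004 over all tested genes. Of the called genes, CDKN1A and CDKN1B are brakes and changed in opposite directions, while CDK6 and CCND3 are on the cyclin D side. CDK6 was at 199 and 154 CPM with DMSO and 362 and 278 CPM with Dox, and rose 1.81-fold (log2 fold change 0.86, SE 0.11, adjusted p = 1.82e-05 by edgeR). CCND3 was at 14.7 and 15.3 CPM with DMSO and 24.3 and 22.9 with Dox, and rose 1.57-fold (log2 fold change 0.65, SE 0.11, adjusted p = 0.000191 by edgeR). CDKN1A, the p21 brake on cyclin kinases, was at 90.8 and 80.8 CPM with DMSO and 122 and 103 with Dox, and rose 1.31-fold (adjusted p = 0.0108 by edgeR). CDKN1B, the p27 brake, fell 1.29-fold from 57.7 and 54.5 CPM to 39.9 and 47.1 CPM (adjusted p = 0.0115 by edgeR). The CDKN1A call was lost when the GC trend was removed (0.31) and without SMARCB1 Dox replicate 1 (0.27) or SMARCB1 DMSO replicate 2 (0.31). The CDKN1B call was lost with library totals (-0.27) and without SMARCB1 Dox replicate 1 (-0.25) or SMARCB1 DMSO replicate 1 (-0.33). CDKN2A, the p16 locus, had 0.31 (SE 0.19, adjusted p = 0.345 by edgeR), at 3.37 to 5.0 CPM in the line. In the GFP line 0 of the 12 were called.

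Of 26 mitosis genes, PLK1, a mitotic kinase, was the 1 called with Dox in the SMARCB1 line, from 83.8 and 90.8 CPM to 116 and 111 CPM (log2 fold change 0.38, SE 0.08, adjusted p = 0.00369 by edgeR). That is 3.85% of the list against 14.0% of all tested genes, and the median of the 26 was 0.04. Between the lines without Dox, CCND2, cyclin D2, was at 28.9 and 32.7 CPM in the SMARCB1 line and 0.888 and 0.651 CPM in the GFP line (log2 fold change 5.33, SE 0.21). CDK6 (-1.48, SE 0.12), CDKN2A (-1.02, SE 0.19) and CDKN1A (-0.79, SE 0.10) were lower in the SMARCB1 line, so the lines differed in these G1 genes before any Dox. Of the mitosis genes, MYBL2, a transcription factor of late cell cycle genes, was higher (0.43, SE 0.09), as was CCNB2 (0.27, SE 0.09). Lower were 4, with AURKA (-0.32), BUB1B (-0.28) and KIF11 (-0.27) the largest, so that 23.1% of the list was called against 32.0% of all tested genes. Without SMARCB1 DMSO replicate 1, BUB1B and KIF11 lost their call (both -0.21), as they did without GFP DMSO replicate 2. CCNB2 lost its call in 4 of 16 alternatives, KIF11 in 3 and AURKA in 1.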
